A study of Drosophila melanogaster with 3 samples.

Results

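The chemoreceptor genes of Drosophila melanogaster are described here as targets, or not, of the protein encoded by CG13296, a gene also known as Prdm13 for its PR/SET domain and zinc fingers. Members were the protein-coding genes whose symbol is Or, Gr or Ir followed by a digit. There were 179 of them among 13945 protein-coding genes, of which 59 were Or, 60 Gr and 60 Ir genes, and the naming rule itself uses no binding value, though the group was picked with earlier results of these data known. Orco, the olfactory coreceptor, does not follow this naming and was treated with the related genes. Chromatin came from whole embryos of mixed sex, aged 6 to 18 hours, of the transgenic strain CG13296-GFP, which stably expresses CG13296 with a C-terminal green fluorescent protein (GFP) tag. There was 1 group of 3 biological replicates, precipitated against the tagged protein, and all of them carry the transgene, so no strain or treatment could be set against another. The free-text description of the libraries calls them input, whereas the assay title, the antibody label and the records deposited with the peak lists mark them as immunoprecipitated, with a control alignment common to all 3, and they were used as such. The sources used here give neither the driver and insertion site of the transgene nor read numbers, so depth is unknown.

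Odorant receptors (Or) and gustatory receptors (Gr) are related membrane proteins with several membrane-spanning segments that work as ligand-gated channels. Ionotropic receptors (Ir) derive from ionotropic glutamate receptors. A sensory neuron usually expresses a specific receptor, often together with a coreceptor, and most of these genes are active in few neurons of the larval and adult sense organs. In whole-embryo chromatin, binding in few cells and weak binding in many cells cannot be told apart.

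No chemoreceptor gene carried a peak of the thresholded set at its promoter, and few carried even a weak one. Binding was read from 5 deposited peak lists. The set that passed the authors' threshold on the irreproducible discovery rate (IDR) held 5724 peaks, and the pooled list and the list of each replicate held 30000 peaks each, relaxed lists that by their deposited label include background. The summit is the base of highest enrichment within a peak, and a gene was counted where a summit lay within 500 bp of any of its transcription start sites (TSSs). In the IDR set 0 of 179 genes were counted (exact 2-sided 95% interval 0 to 2.04%), beside 23.3% of all protein-coding genes. A count of 3 genes would be 1.68%. In the pooled list 8 of 179 were counted, 4.47% (95% exact binomial interval 1.95 to 8.62), beside 49.3% of all protein-coding genes. Intervals and limits cover counting error only, and neighbouring genes are not independent.

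Counts in the single replicates were similar. Replicate 1 had 9 chemoreceptor genes with a summit (5.03%), beside 50.8% of all protein-coding genes. Replicate 2 had 11 (6.15%), beside 49.1%, and replicate 3 had 13 (7.26%), beside 52.1%. The mean was 11 ± 2 genes, or 6.15% ± 1.12 (SD, n = 3), against 50.7% ± 1.46 of all protein-coding genes. The 3 values for chemoreceptor genes did not overlap with those for all genes. They also lay under the share of the 6 chromosome arms within 500 bp of a summit, which was 18.7%, 18.3% and 17.9% of bases in replicates 1, 2 and 3 and 18.2% in the pooled list. For the IDR set that share of bases was 4.01%.

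**Figure D1:**
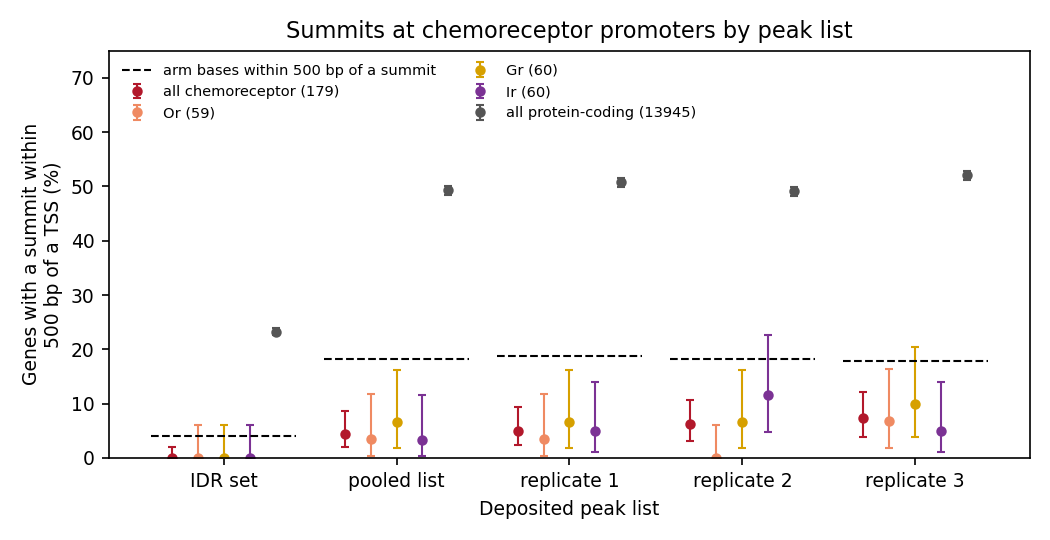
Share of genes with a summit within 500 bp of a TSS (y axis, %) in each deposited peak list (x axis), for chemoreceptor genes, their 3 families and all protein-coding genes; bars are exact 95% binomial intervals and the dashed lines give the share of arm bases within 500 bp of a summit. Chemoreceptor genes lie at 0% in the IDR set and between 4.47% and 7.26% in the other lists, below the dashed line in each.

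Support across replicates was rare. Of the 179 genes, 159 had no summit in any of the 3 replicate lists, 11 had a summit in 1 list, 5 in 2 lists and 4 in all 3. These are 88.8%, 6.15%, 2.79% and 2.23% of chemoreceptor genes, beside 37.9%, 11.3%, 11.7% and 39.1% of all protein-coding genes. The 4 were Gr97a, Ir31a, Ir21a and Ir25a. When each replicate list was shortened by signal to 5724 peaks, the length of the IDR set, replicates 1 and 3 had no chemoreceptor gene and replicate 2 had 2, Gr97a and Ir60e. The same lists counted 23.1%, 23.1% and 23.7% of all protein-coding genes in replicates 1, 2 and 3.

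Sequence is given for the pooled summits of Gr97a, Ir31a, Ir21a and Gr63a, the last found in replicates 1 and 2 only. No set of other summit sequences was compared with them. Each line below gives 201 bases of the plus strand of build dm6, centred on the pooled summit. Capitals mark matches, on either strand, to the TATA box (TATAAA), the DNA replication element DRE (TATCGATA), the BEAF-32 core (CGATA), the core of Ohler motif 1 (GGTCACAC), Ohler motif 7 (CATCNCTA), the GAGA site (GAGAG) and the forkhead site (TGTTTAC).
Gr97a, chr3R:26966797-26966997: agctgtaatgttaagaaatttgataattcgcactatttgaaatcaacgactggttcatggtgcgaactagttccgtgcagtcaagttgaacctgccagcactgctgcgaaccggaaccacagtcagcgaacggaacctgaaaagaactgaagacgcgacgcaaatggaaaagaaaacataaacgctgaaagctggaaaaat
Ir31a, chr2L:10405151-10405351: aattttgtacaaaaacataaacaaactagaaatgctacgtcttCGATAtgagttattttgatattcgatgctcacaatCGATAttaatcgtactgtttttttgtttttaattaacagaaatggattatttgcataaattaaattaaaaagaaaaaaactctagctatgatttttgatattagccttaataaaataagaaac
Gr63a, chr3L:3896748-3896948: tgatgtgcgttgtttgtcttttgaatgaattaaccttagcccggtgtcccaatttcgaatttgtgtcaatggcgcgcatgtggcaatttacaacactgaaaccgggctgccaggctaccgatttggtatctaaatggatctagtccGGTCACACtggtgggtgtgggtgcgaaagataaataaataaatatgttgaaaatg
Ir21a, chr2L:24792-24992: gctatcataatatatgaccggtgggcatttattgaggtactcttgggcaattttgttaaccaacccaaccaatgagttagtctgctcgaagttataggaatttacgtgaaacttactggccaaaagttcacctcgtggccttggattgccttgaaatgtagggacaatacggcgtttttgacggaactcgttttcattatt

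The Ir31a sequence, with 23.4% G or C, held the BEAF-32 core, and that of Gr63a the core of Ohler motif 1. These matches lay more than 250 bases before the TSSs of Ir31a and Gr63a, outside the promoters compared further below. There, 0 of 179 chemoreceptor promoters held the core of Ohler motif 1. The sequences of Gr97a (43.8% G or C) and Ir21a (41.3%) held none of the 7 motifs.

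Several of the stronger summits at chemoreceptor genes, including both of highest pooled signal, lay near the start of another gene. Gr97a, a gustatory receptor gene on the minus strand of 3R (26965124 to 26966485), had signals of 76.9, 58.0 and 48.0 in replicates 1, 2 and 3. These signals are the authors' own values and ranked 5805, 4155 and 10779 of 30000. The pooled summit (signal 184, rank 5886) was the highest at any chemoreceptor gene and fell just short of the 5724 IDR peaks. It lay 412 bp upstream of Gr97a and 33 bp upstream of CG5521, whose TSS points away from Gr97a at a distance of 445 bp. In replicates 1, 2 and 3 the summits lay 73, 30 and 219 bp upstream of CG5521.

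Ir31a, an ionotropic receptor gene on the plus strand of 2L (10405565 to 10408197), repeated this arrangement. Its strongest summits had signals of 40.9, 40.6 and 40.9 in replicates 1, 2 and 3, at ranks 13342, 7057 and 13170. The pooled summit ranked 8360, 314 bp upstream of Ir31a and 48 bp upstream of LSm-4, which encodes an Sm-like RNA-binding protein and is transcribed away from Ir31a from a TSS 362 bp distant. In replicates 1 and 2 the strongest summits lay 21 and 56 bp upstream of LSm-4, whereas in replicate 3 the strongest lay 221 bp downstream of the TSS of Ir31a. A second, weaker pooled summit lay 16 bp upstream of Ir31a. Replicate 1 also had a weaker summit 230 bp downstream of Ir31a, and replicate 3 one 13 bp upstream.

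Gr63a, which with Gr21a forms the carbon dioxide receptor, had signals of 65.1 in replicate 1 (rank 7318) and 15.3 in replicate 2 (rank 24762), and no summit within 500 bp in replicate 3, where the nearest lay 2519 bp upstream. The pooled summit (rank 12683) lay 245 bp upstream of Gr63a and 52 bp upstream of Lamtor4, a gene for a subunit of the lysosomal Ragulator complex whose TSS is 297 bp away and points in the other direction. In replicates 1 and 2 the summits lay 52 and 16 bp upstream of Lamtor4. Ir60e, on 2R, had a summit in replicate 2 alone (signal 65.3, rank 3448), 320 bp upstream of its TSS and 2 bp upstream of that of CG13585, again in divergent orientation. In replicates 1 and 3 the nearest summits to Ir60e lay 821 and 1023 bp upstream.

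Of the 8 chemoreceptor genes counted in the pooled list, 3 had a strongest summit that was within 500 bp of the TSS of a gene outside the family, and closer to it than to their own. The same held in replicates 1, 2 and 3 for 3 of 9, 4 of 11 and 1 of 13 genes. The matching share over all protein-coding genes was not computed, so this arrangement cannot be called particular to chemoreceptor genes. Whether a summit between a pair of divergent TSSs belongs to either gene was not tested.

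Ir21a and Ir25a were found in all 3 replicates with no other TSS within 500 bp of the summits. Ir21a, needed for cool sensing together with coreceptors, lies on the minus strand of 2L (21823 to 25155). Its strongest summits had signals of 48.7, 15.2 and 46.9 in replicates 1, 2 and 3, with ranks of 10704, 24836 and 11111, so replicate 2 was the low library. The pooled summit ranked 12465, below those of Gr97a and Ir31a and just above that of Gr63a. These summits lay 451 bp upstream, 81 bp downstream and 270 bp downstream of the TSS. Replicate 1 also had a weaker summit 263 bp downstream, where the pooled summit lay. Ir25a, a coreceptor used by many ionotropic receptors, has 3 TSSs, and its strongest summits ranked 17525, 21102 and 28132 in replicates 1, 2 and 3, with signals of 32.9, 17.5 and 20.8. They spread over 1538 bp, and the pooled list held none within 500 bp, the nearest lying 893 bp upstream.

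The 5'-most promoter of Ir25a, which carries the summit of replicate 1 at 135 bp upstream, is given from 250 bases before the TSS to 50 after it, on the minus strand, and held no match to the 7 motifs.
Ir25a, chr2L:4835251-4835550: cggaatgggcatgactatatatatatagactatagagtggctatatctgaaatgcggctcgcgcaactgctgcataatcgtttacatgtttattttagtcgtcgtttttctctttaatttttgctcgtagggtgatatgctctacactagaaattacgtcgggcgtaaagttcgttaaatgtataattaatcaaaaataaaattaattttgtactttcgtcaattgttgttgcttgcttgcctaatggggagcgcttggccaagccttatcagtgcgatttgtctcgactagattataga

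At the 4 genes found in all 3 lists, the strongest summits of the replicates lay within 189 bp of each other at Gr97a, and spread over 562, 721 and 1538 bp at Ir31a, Ir21a and Ir25a, the last with 3 TSSs. Weaker summits, not used for the spread, lay closer at Ir21a and Ir31a. Replicate 1 also had a summit 263 bp downstream of Ir21a, beside 270 bp in replicate 3. At Ir31a it had one 230 bp downstream, beside 221 bp in replicate 3. At the 5 genes found in 2 lists the summits lay 36 bp apart at Gr63a, 68 bp at Gr77a, 72 bp at Or88a, 77 bp at Gr39a and 124 bp at Gr5a. A spread over 2 summits tends to be smaller than one over 3, so these values are not comparable with the others. Over the 5459 protein-coding genes with a summit in all 3 lists the median spread was 83 bp (quartiles 38 and 203), and 4079 of them (74.7%) had their summits within 200 bp.

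The other genes of the pooled list ranked low. Or88a, a receptor for pheromonal odours, had its pooled summit at rank 12939, 465 bp upstream. Its summits in replicates 1 and 3 ranked 21406 and 22844, and in replicate 2 the nearest lay 578 bp upstream. Or10a and Gr10a, which share a TSS on the X, shared the pooled summit of rank 14096 at 484 bp upstream, the last inside the window. The next gene outside the window was Gr58c, at 512 bp. Gr77a, inside CG13252, had a pooled summit of rank 23566 and summits in replicates 2 and 3 alone. The median rank over the 8 genes was 12811, against 6237 over the 6870 protein-coding genes counted in the same list.

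Single-list summits made up most of the rest. Gr39a was found in replicates 1 and 3, at ranks 15033 and 17465, and Gr5a, a sugar receptor gene, in replicates 1 and 3 at ranks 25013 and 27631. Gr21a had a summit 10 bp downstream of its TSS in replicate 2 alone, at rank 27875. Ir76a, Ir48c, Or1a, Gr93a, Or43b, Ir11a and Or9a were each found in 1 list, at ranks between 18735 and 28975.

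**Figure D2:**
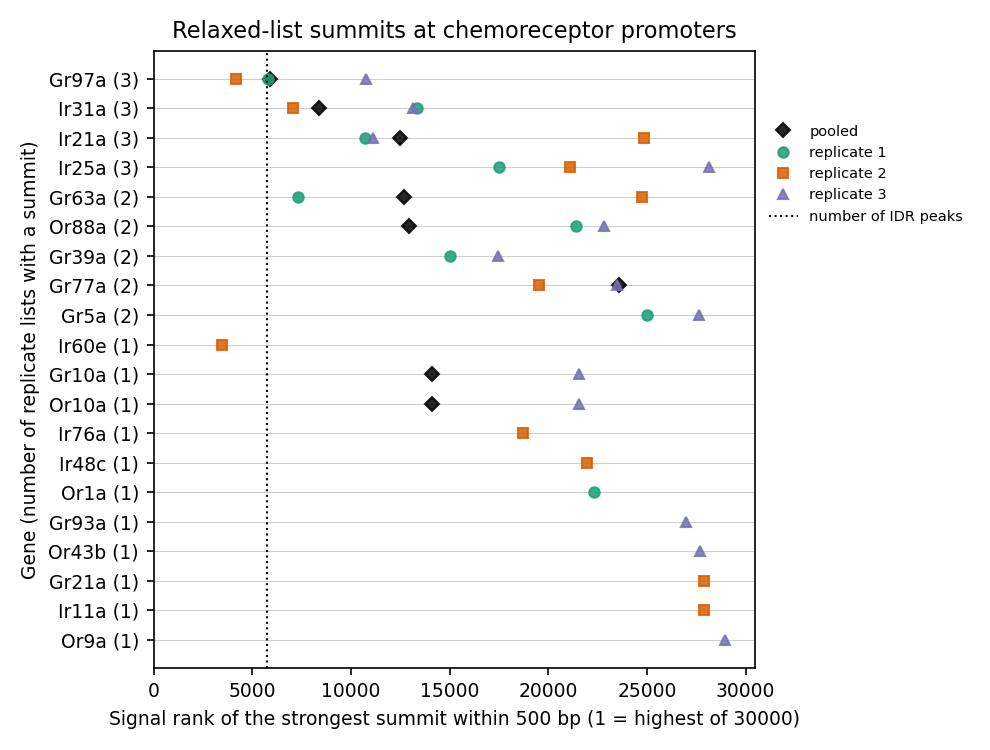
Signal rank (x axis, 1 is the highest of 30000 peaks) of the strongest summit within 500 bp of a TSS for the 20 chemoreceptor genes with a summit in any replicate list (y axis, with the number of replicate lists in brackets); diamonds give the pooled list, other symbols the replicates, and the dotted line stands at 5724. Only Gr97a and Ir60e, both in replicate 2, lie left of the dotted line.

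By family, the pooled list counted 2 of 59 Or genes (3.39%, exact interval 0.413 to 11.7), 4 of 60 Gr genes (6.67%, 1.85 to 16.2) and 2 of 60 Ir genes (3.33%, 0.406 to 11.5). The same list counted 49.3% of all protein-coding genes. In the replicates the shares were 3.39% ± 3.39 for Or, 7.78% ± 1.92 for Gr and 7.22% ± 3.85 for Ir genes (SD, n = 3), so the families overlapped. For all protein-coding genes the replicate share was 50.7% ± 1.46. Replicate 2 counted no Or gene, beside 49.1% of all protein-coding genes. No Or gene was counted in all 3 replicates, against 1 Gr gene, 3 Ir genes and 39.1% of all protein-coding genes. By arm, the pooled list counted 2 of 31 genes on 2L, 0 of 46 on 2R, 2 of 35 on 3L, 2 of 42 on 3R and 2 of 25 on the X. Shares of all protein-coding genes by arm were not computed, so no difference between arms is read from these counts.

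Groups of known function had few or no counted members. In the pooled list none of 9 sugar receptor genes, 3 bitter receptor genes or 4 coreceptor genes was counted, beside 49.3% of all protein-coding genes. Of the 2 carbon dioxide receptor genes Gr63a was counted, of 8 genes linked to pheromone sensing Or88a, of 4 for temperature and humidity Ir21a, and of 14 for food odours Or10a. The replicate lists added the coreceptor gene Ir25a in all 3, the sugar receptor gene Gr5a in replicates 1 and 3, the bitter receptor gene Gr93a in replicate 3, Gr21a in replicate 2 and Or43b in replicate 3. These groups are small, and the exact interval for 0 of 9 genes reaches 33.6%.

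Chemoreceptor genes lay farther from the IDR peaks at the median than all protein-coding genes, and so did the cuticle protein genes described below. The median distance from a gene's nearest TSS to the nearest IDR summit was 16454 bp (quartiles 6314 and 38796), against 5544 bp over all protein-coding genes. By family the medians were 26788 bp for Or, 12998 bp for Gr and 12526 bp for Ir genes. Within 1000 bp there were 3 chemoreceptor genes (27.1% of all protein-coding genes), within 2000 bp 8 (32.8%) and within 5000 bp 32 (47.8%). To the nearest pooled summit the median was 4907 bp, against 536 bp, and 91 genes had a pooled summit within 5000 bp (75.9% of all protein-coding genes). In the replicates the median was 4479 ± 422 bp, against 474 ± 72.8 bp over all protein-coding genes (SD, n = 3).

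**Figure D3:**
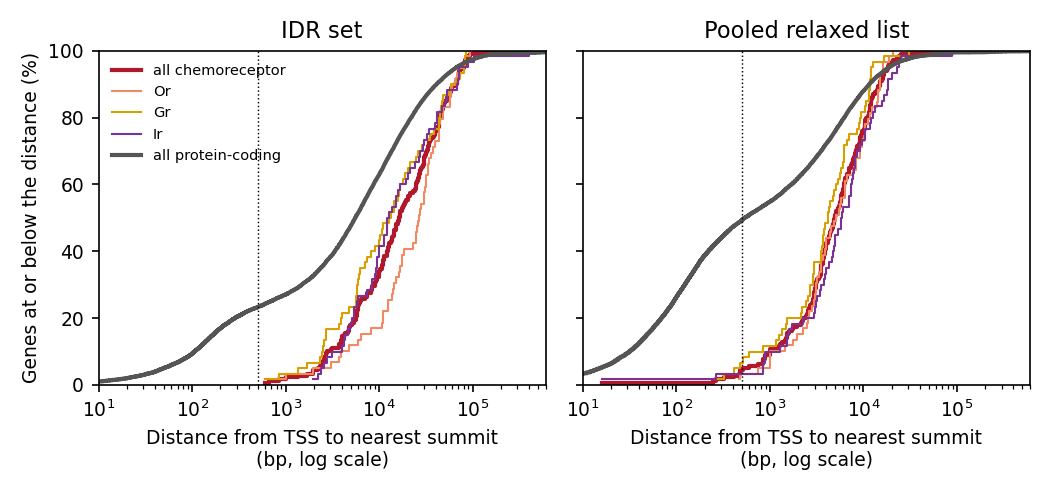
Cumulative share of genes (y axis, %) by distance from the nearest TSS to the nearest summit (x axis, bp, log scale), for chemoreceptor genes, their families and all protein-coding genes, in the IDR set and the pooled list; the dotted line stands at 500 bp. Chemoreceptor curves start to the right of the dotted line in the IDR set and reach their middle at 16454 bp, against 5544 bp for all genes.

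Of the 10 IDR summits closest to chemoreceptor genes, 6 lay within 500 bp of the TSS of another gene and 4 did not. Gr32a, a receptor gene used in pheromone sensing, came closest, with an IDR summit of signal 650 (rank 814) at 595 bp upstream, which is 358 bp upstream of Idua, the gene of a lysosomal iduronidase. The next was Or88a, with a summit of rank 804 at 665 bp upstream and 459 bp upstream of CG12402. Gr64a, a sugar receptor gene, followed at 841 bp upstream, where the summit (rank 2921) lay 83 bp downstream of the TSS of CG11594. Or9a stood 1012 bp from a summit 48 bp upstream of Neb-cGP.

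The sequence at the summit beside Gr32a held matches to GAGAG, and that beside Gr64a matches to TATAAA and GAGAG. These are string matches and were not placed relative to a TSS. Each sequence is shown on the plus strand of dm6 over 201 bases centred on the IDR summit.
Gr32a, chr2L:11113319-11113519: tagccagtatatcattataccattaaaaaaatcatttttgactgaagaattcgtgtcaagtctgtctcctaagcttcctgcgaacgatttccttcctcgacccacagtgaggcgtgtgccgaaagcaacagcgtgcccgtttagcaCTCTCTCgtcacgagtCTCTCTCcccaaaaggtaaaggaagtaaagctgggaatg
Gr64a, chr3L:4025828-4026028: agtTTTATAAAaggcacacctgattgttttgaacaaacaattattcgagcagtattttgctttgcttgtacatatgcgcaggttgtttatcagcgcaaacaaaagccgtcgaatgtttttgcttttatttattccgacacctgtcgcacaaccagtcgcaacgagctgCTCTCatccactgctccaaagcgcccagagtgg

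Behind these came Gr89a, with a summit 1350 bp downstream that lay 2187 bp from the TSS of Cad89D, and Gr97a, with a summit 1682 bp upstream that lay 1237 bp downstream of the TSS of CG5521. Or85f followed with a summit 1957 bp downstream, 94 bp upstream of CG34117, and Ir94c with a summit 1964 bp upstream, 1357 bp from the TSS of CG42390. Ir68b lay 2239 bp from the strongest of these peaks, of rank 149, whose summit was 5 bp upstream of yps, a Y-box protein gene. Gr5a was the tenth gene, at 2328 bp from a summit that lay 1331 bp from the TSS of Tre1. For 111 of 179 chemoreceptor genes the nearest IDR summit was within 500 bp of a TSS of a gene outside the family, where 52.3% of all IDR summits lay within 500 bp of some TSS. The first share is per gene, and the 179 genes have only 122 distinct nearest summits, whereas the second is per summit. At the other end, Ir41a on 2R was 401071 bp from an IDR summit, at RpL38, and Ir20a, Or67c, Ir11a and Gr92a were 102981, 93089, 89061 and 84885 bp away.

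Chemoreceptor genes had summits less often than the genes next to them, with no test of the difference. The nearest protein-coding gene outside the family stood at a median of 4296 bp, and there were 138 distinct such neighbours. In the IDR set 0 of 179 chemoreceptor genes had a summit within 500 bp, against 19 of these neighbours (13.8%), and in the pooled list 8 of 179, against 54 neighbours (39.1%). Both neighbour shares were also below those of all protein-coding genes, 23.3% in the IDR set and 49.3% in the pooled list. A TSS of such a neighbour lay within 500 bp of 12 chemoreceptor genes, and of these 12 neighbours 5 were counted in the pooled list and 1 in the IDR set.

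Summit density around chemoreceptor genes was lowest near the TSS. Counted from the 5'-most TSS of each chemoreceptor gene, the pooled list held 101 summits per Mb in the 500 bp upstream and 11.2 per Mb in the 500 bp downstream, against 803 and 424 per Mb around all protein-coding genes and 224 per Mb over the arms. From 500 to 1000 bp downstream of chemoreceptor TSSs it held none. Between 2000 and 5000 bp the density was 186 per Mb upstream and 121 per Mb downstream, and between 10000 and 20000 bp it was 225 and 218 per Mb, close to the average of the arms. All protein-coding genes stood at 275 and 272 per Mb in that last interval, where windows of neighbouring genes overlap. In the IDR set the chemoreceptor values between 5000 and 10000 bp were 44.7 per Mb on both sides, against 65.3 and 64.3 per Mb around all protein-coding genes and an arm average of 42.8. Between 10000 and 20000 bp they were 37.4 per Mb upstream and 39.1 per Mb downstream, against 62.2 and 62.1 per Mb.

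**Figure D4:**
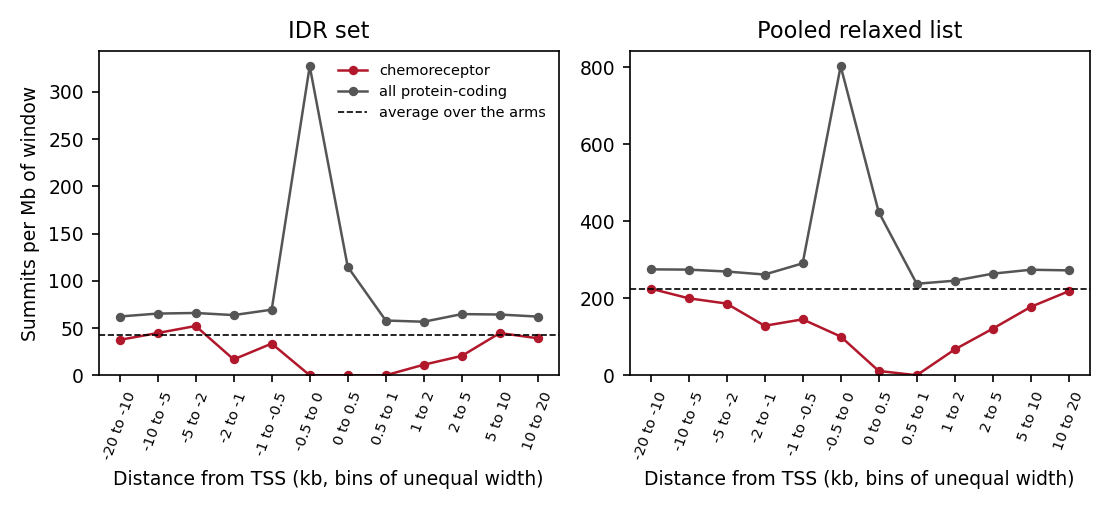
Summits per Mb (y axis) in bins of distance from the 5'-most TSS of each gene (x axis, kb, upstream negative, bins of unequal width), for chemoreceptor genes and all protein-coding genes, in the IDR set and the pooled list; the dashed line is the average over the arms. Around chemoreceptor genes the pooled density falls to 0 between 500 and 1000 bp downstream and is 225 and 218 per Mb in the outermost bins.

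Gene bodies were similarly bare. No IDR summit lay inside any of the 179 chemoreceptor genes, whereas 15.6% of all protein-coding genes held a summit. In the pooled list 6 chemoreceptor genes (3.35%) held one, against 34.2%. Chemoreceptor genes are short, with a median length of 1691 bp against 2166 bp, and carry 1.11 TSSs per gene against 1.41. The part of length and TSS number in these counts was not tested.

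Clustering of the genes limits how many independent observations there are. Joining chemoreceptor genes whose 5'-most TSSs were within 10000 bp of each other gave 127 loci, 99 of them with 1 gene. The largest held 6 genes each, the sugar receptor cluster Gr64a to Gr64f on 3L and the Ir7b to Ir7g cluster on the X, and neither had a pooled summit within 500 bp of a TSS. Pooled summits were found at 7 of the 127 loci, and an IDR summit lay within 5000 bp of a TSS in 26 and within 20000 bp in 70. Of the 80 genes in loci of at least 2 genes, 2 had a summit in any replicate list, against 18 of the 99 that stood alone, beside 62.1% of all protein-coding genes. In all, 30 chemoreceptor genes start inside a gene outside the family, and 1 of these 30, Gr77a, had a pooled summit.

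Promoter sequence was compared from 250 bases before to 50 after the 5'-most TSS, with motifs searched on both strands. TATAAA was found in 46 of 59 Or promoters (78.0%), 18 of 60 Gr promoters (30.0%) and 33 of 60 Ir promoters (55.0%), beside 45.8% of all 13945 promoters. The DRE, bound by DREF at many housekeeping promoters, was found in 1 of 179 chemoreceptor promoters (0.559%) beside 9.36% of all, and the core of Ohler motif 1 in 0 of 179 beside 7.70%. Ohler motif 7 was found in 2 of 179 (1.12%) beside 6.42%, and the BEAF-32 core CGATA, which lies within the DRE, in 33.5% beside 47.4%. Among the 3244 protein-coding genes with an IDR summit, the DRE, Ohler 1 core and Ohler 7 shares were 13.9%, 10.5% and 11.2%. Among the 10522 other protein-coding genes without one, chemoreceptor genes left out, they were 8.11%, 6.97% and 5.05%. The GAGA site was found in 20.1% of chemoreceptor promoters beside 29.7%, the E-box CANNTG in 83.2% beside 77.2%, the Initiator core TCAGT in 50.8% beside 51.5% and the forkhead site in 6.15% beside 9.19%. In the same genes with and without an IDR summit, TATAAA was found in 46.0% and 45.6%, and CGATA in 52.7% and 45.9%. GAGAG stood at 31.8% and 29.2%, and CANNTG at 76.3% and 77.4%. TCAGT stood at 47.0% and 53.0%, and the forkhead site at 10.4% and 8.87%. A match is a string of letters and says nothing of binding, and the part of these sequences in the count of summits was not tested.

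**Figure D5:**
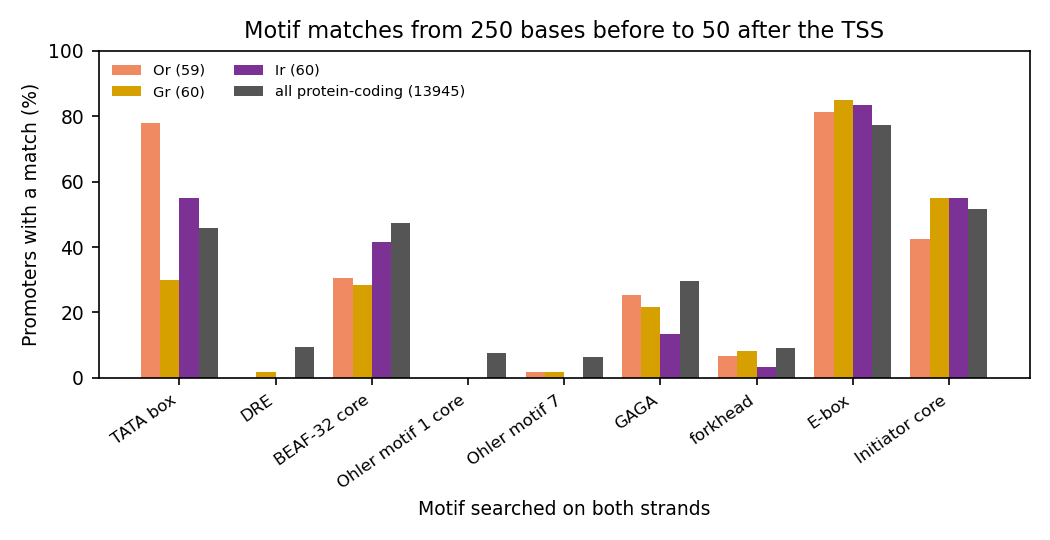
Share of promoters with a motif match (y axis, %) for Or, Gr and Ir genes and all protein-coding genes, over 9 motifs searched on both strands from 250 bases before to 50 after the TSS (x axis). The TATA box stands at 78.0% in Or genes and 30.0% in Gr genes, and the DRE and the core of Ohler motif 1 are nearly absent from all 3 families.

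Base composition and repeats were near those of other promoters. The median G and C content was 39.3% for chemoreceptor promoters, against 38.0% for all, and the median exonic share within 500 bp of the TSS was 50.05% in each. Sequences of 31 bases that occur more than once on the arms, where short reads may not be placed, made up 0.995% of the bases within 500 bp of chemoreceptor TSSs on average, against 2.70% for all. Such repeats made up more than 10% at 2 genes, Or19a and Or19b, near-copies with 84.1% each.

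Genes listed here as accessory to chemosensing were also counted less often than all protein-coding genes, with no test of the difference. Of all protein-coding genes, 23.3% had an IDR summit and 49.3% a pooled summit. Beside 0 and 8 of 179 chemoreceptor genes in the IDR set and the pooled list, 3 (3.66%) and 15 (18.3%, exact interval 10.6 to 28.4) of 82 accessory genes were counted. The accessory list includes Orco, the odorant-binding proteins and the CheA and CheB families. It also holds the separate channel genes pain, TrpA1, ppk23, ppk25, ppk28 and ppk29, of which pain and ppk29 had a pooled summit. The 3 with an IDR summit were Obp99b (rank 1443, 253 bp upstream), Obp83g (rank 2582, 219 bp upstream) and CheB42c (rank 4619, 38 bp downstream). Orco had no summit within 500 bp in the IDR set or the pooled list, and its nearest IDR summit lay 822 bp upstream. Of 20 genes for transcription factors known from chemosensory development or receptor choice, 5 had an IDR summit (25%) and 10 a pooled summit (50%), near the shares of all protein-coding genes. Those with an IDR summit were Xbp1 (rank 733, 95 bp upstream), Dll (rank 1040, 86 bp upstream), zf30C (rank 1290), sd (rank 3088) and ey (rank 5005). The pooled list added onecut (rank 11298), pdm3 (rank 12028), fru (rank 15541), dsx (rank 20724) and Fer1 (rank 23364). The POU factor gene acj6, the proneural genes ato and amos, and Eip93F, dac, lz, pros, rn, sim and svp had none in the pooled list. Of these, pros (ranks 5264 and 9802) and svp (ranks 9139 and 10963) had summits in replicates 1 and 2. In single lists, rn had one in replicate 1 (rank 22189) and dac one in replicate 2 (rank 23886). The others named had none in any replicate list.

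Cuticle protein genes, another group of clustered genes with no IDR summit, had a share in the relaxed lists between those of chemoreceptor genes and of all protein-coding genes. In the pooled list 8 of 179 chemoreceptor genes were counted (exact interval 1.95 to 8.62), against 25 of 116 cuticle protein genes (21.6%, 14.5 to 30.1) and 49.3% of all protein-coding genes. In the replicates the chemoreceptor share was 6.15% ± 1.12, against 20.7% ± 1.49 for cuticle protein genes and 50.7% ± 1.46 for all protein-coding genes (SD, n = 3 each), and the 3 values of each did not overlap. The difference has no test, since genes of a cluster are not independent. To the nearest IDR summit the median distance was 15446 bp (quartiles 7558 and 30984) for cuticle protein genes, near the 16454 bp of chemoreceptor genes. To the nearest pooled summit it was 2460.5 bp, against 4907 bp.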

How the data were processed

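CG13296-GFP chromatin from 3 replicates of whole embryos was sonicated to 200 to 800 bp, precipitated and sequenced, per the labels' protocols. The authors deposited 1 peak list per replicate, 1 pooled list and 1 IDR set on dm6, per the deposited derivation records. Their signal values have no stated normalization and served, as deposited, to rank peaks within a list. The −log10 q-value column of the deposited lists was not used. For the peak caller, aligner, IDR threshold and read numbers, nothing is given in the sources used here. The label of age holds a number that no embryo reaches, and the range in the source name was used.

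Summits (interval start plus the deposited offset) on the 6 arms were compared with TSSs of Ensembl release 115 (BDGP6.54). Of 30593 annotated start codons, 30540 read ATG in the release 6 RefSeq sequence used. Counts have exact binomial intervals, and no test of a difference was run, since there was 1 group. Intervals were computed with scipy 1.17.1, tables with pandas 2.3.3 (Python 3.11.15) and plots with matplotlib 3.10.9, and the scripts were tested on simulated peaks. Members and gene lists were chosen with earlier results of these data known. Named genes were those in all 3 replicates or in a shortened replicate list, the 10 nearest to and 5 farthest from an IDR summit, the 5 of highest pooled signal, those of known role and bound related genes. Others were named after their values were seen. Alternatives were the window, 1 TSS per gene, peak intervals, shorter lists and leaving out each replicate.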

Additional observations from a re-analysis of the deposited data

How the results depend on the processing

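The IDR count was 0 with a 200 bp window, 1 TSS per gene or the 2862 peaks of highest signal. It was also 0 with peaks supported by all 3 replicates and with each replicate left out. These settings narrow the window or drop TSSs or peaks, so a count of 0 could not rise and they are no check of it. In the wider settings the IDR count was 3 within 1000 bp, 8 within 2000 bp and 1 (Or88a) when any base of the interval counted. The pooled count of 8 became 1 within 200 bp, 18 within 1000 bp and 32 within 2000 bp. The replicate mean of 11 became 2.67, 24 and 40 in those windows, 3.33 in the 15000 peaks of highest signal and 0.667 in lists of IDR length. The count of 4 genes in all 3 replicates became 0, 10 and 24 in those windows, 2 (Gr97a and Ir31a) in the 15000 peaks and 0 in lists of IDR length. Leaving out a replicate gave 5 to 7, with Gr39a, Gr5a and Or88a added without replicate 2. The median IDR distance of 16454 bp became 30567 bp with 2862 peaks and 19519 to 23849 bp with a replicate left out, where fewer peaks remain. The median pooled distance of 4907 bp became 7750 bp with 15000 peaks. No paired analysis was possible because there was 1 group. With read depth unknown, a missing summit does not show that a gene was unbound.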
